A study of Rattus norvegicus with 4 samples.

Results

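The genes described here encode receptors that let a phagocyte recognise and take up apoptotic cells, the soluble proteins that bridge the dying cell to those receptors, and 1 adaptor of the engulfment step. The set has 10 members, chosen by name: the receptors Mertk, Axl, Tyro3, Timd4, Stab1 and Stab2, the bridging proteins Gas6, Pros1 and Mfge8, and the adaptor Elmo1. A probe whose accession matched a RefSeq transcript was found for 7 of the 10, with 1 probe each, among 16581 named genes on the array. Stab1, Timd4 and Elmo1 had no named probe, so their transcripts were not analysed here and only their promoters are described.

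An apoptotic cell exposes phosphatidylserine on its outer membrane. Gas6 and Pros1 (protein S) bind this lipid through a domain that needs vitamin K-dependent gamma-carboxylation, and present the cell to Tyro3, Axl and Mertk, the receptor tyrosine kinases known by their initials as TAM receptors. Mfge8 binds the same lipid and couples it to integrins, whereas Timd4, Stab1 and Stab2 bind it directly. Elmo1 acts with Dock1 to activate Rac, which drives the actin movement of engulfment. In the lung, alveolar macrophages are the resident phagocytes that clear dying cells from the airspace.

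NR8383 is an established macrophage line derived from the lavaged lung of a normal rat. All 4 samples formed 1 group, cells after 20 passages, seeded for 48 h and kept for 4 h in a water control condition. The sample names add the letters ALI, whose meaning is not given. The samples are biological replicates of 1 line per the design text, so their spread is that of repeated cultures and not of animals, and with 1 group no comparison between conditions could be made. RNA (100 ng a sample) was measured on 4 one-colour arrays of 1 slide, 1 array per replicate.

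Each array gave an intensity per spot, and a spot was counted as present when the scanner software flagged it as well above background. The value used below is the log2 intensity minus the 75th percentile of the gene spots of that array. This percentile was an intensity between 831 (replicate 4) and 1237 (replicate 3). The value is called the relative log2 signal, and 0 stands for that percentile. Over probes, each counted once, the 75th percentile was lower, at log2 intensities of 7.30 to 7.83 against 9.70 to 10.27 over spots. A negative value can thus lie near or above the 75th percentile of probes. A gene was called detected when a probe was well above background on 4 of 4 arrays, partly detected on 1 to 3, and not detected on none. Between 49.2% and 50.3% of gene spots were well above background, and the arrays correlated with an r of 0.990 to 0.994 over 17324 detected probes, which are not independent replicates. Probes differ in affinity, so values follow 1 probe over the arrays and do not rank genes against each other. Of 12 macrophage markers 10 were detected, and Cd163 and C1qa were not. Of the alveolar macrophage genes searched, 6 had a probe: 4 were detected, among them Pparg and Fabp4, and Car4 and Marco were not. Of 30 named markers of fibroblasts, endothelium, epithelium and lymphocytes, 4 were detected (Dcn, Pecam1, Cdh5 and Vwf), 2 partly and 24 not; their part in the values below was not tested.

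The NR8383 cultures held transcripts of all 3 TAM receptors and of Mfge8, while Gas6 was near the detection limit and Pros1 and Stab2 were not detected. Of the 7 members with a probe, 4 were detected, beside 51.0% of all named genes. Gas6 was partly detected, a state of 6.43% of named genes, and Pros1 and Stab2 were not detected, like 42.6% of named genes. Looser rules brought in Gas6 as a detected gene, making 5 of 7: the flag of a positive and significant signal (60.4% of named genes), the 95th percentile of the negative controls (60.5%) and a call on at least 3 of 4 arrays (52.4%). Keeping all spots left the count at 4 (51.1%). Without replicate 1 the count was 5 (51.4%), and without replicate 2, 3 or 4 it was 4 (51.5%, 51.1% and 51.5%). With 7 genes measured, these shares do not set the members apart from the array as a whole.

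Tyro3, a TAM receptor best known from the nervous system and also found on immune cells, was measured by a probe that is spotted 10 times on each array. Its intensity was 1115, 1285, 1548 and 1111 on replicates 1 to 4, between 58.2 and 74.6 times the dimmest probe that was still well above background on the same array. After scaling, the relative log2 signal was 0.34, 0.46, 0.32 and 0.42. No array stood apart: the mean was 0.39 ± 0.07 (SD, n = 4 arrays), a span of 0.14 on the log2 scale from the lowest to the highest array. In bulk RNA, fewer cells with a transcript and less of it per cell cannot be told apart, for this gene and those below. The SD of Tyro3 was smaller than that of most detected probes, since 8.31% of them had a smaller one. Each Tyro3 value averages 6 to 8 spots, whereas the other members have 1 spot each. The rank of this SD therefore cannot be read as that of a steady transcript.

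The repeated Tyro3 spots give the spread within an array beside that between arrays. Within an array the SD of the spots without an outlier flag was 0.07, 0.08, 0.09 and 0.09 on the log2 scale for replicates 1 to 4, from 6, 8, 7 and 7 spots. These are SDs of single spots, whereas the SD of 0.07 between arrays is one of means over several spots, so the 2 do not compare directly. The spot in the outermost row carried an outlier flag on every array and read 944, 977, 904 and 791, below the median of the other 9 spots, which was 1121, 1305, 1598 and 1119. With all 10 spots kept, the array means were 0.31, 0.44, 0.26 and 0.37.

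**Figure D1:**
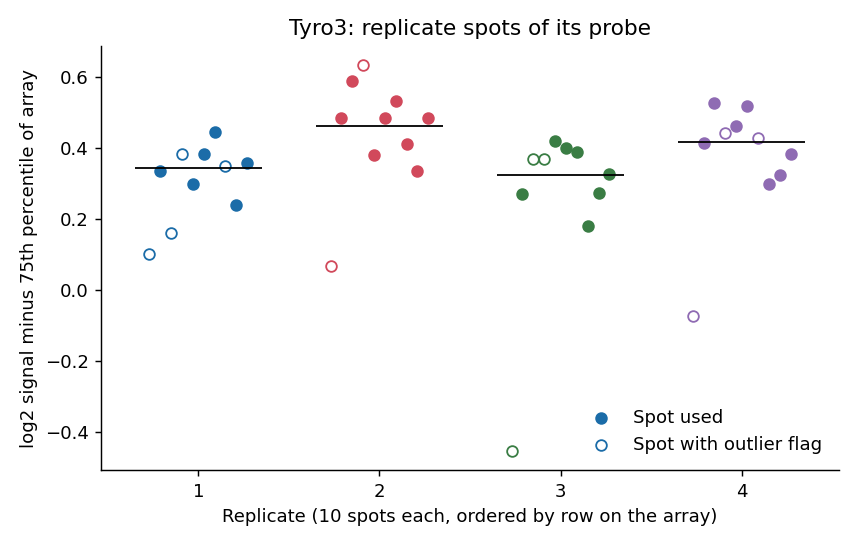
Relative log2 signal of each of the 10 spots of the Tyro3 probe on the 4 arrays, ordered by row; filled points were used, open points carried an outlier flag, and the line is the mean of the used spots. The used spots scatter with an SD of 0.07 to 0.09 within an array, and the flagged spot of the outermost row lies lowest on each array.

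Mertk, the TAM receptor of mature tissue macrophages and of the retinal pigment epithelium, was detected on all 4 arrays. Its probe read an intensity of 134, 179, 206 and 167, which was 7.01 to 9.94 times the dimmest well-detected probe. The relative log2 signal was -2.71, -2.38, -2.58 and -2.32, lowest on replicate 1 and highest on replicate 4. The mean was -2.50 ± 0.18 (SD, n = 4 arrays), and the 1.31-fold span lay close to what transcripts of this signal showed, with a typical fitted SD of 0.19.

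Axl, the TAM receptor that has been described on mouse airway macrophages, was detected on all 4 arrays too, with an intensity of 127, 182, 280 and 109. The relative log2 signal was -2.79, -2.35, -2.14 and -2.93, so replicates 2 and 3 lay above replicates 1 and 4. The mean was -2.55 ± 0.37 (SD, n = 4 arrays) and the span 1.73-fold. Of the detected probes, 10.4% spanned more. The SD was 2.43 times the error that the scanner software estimates for the spot (0.15 on the log2 scale). That estimate is not a measured spread of repeated spots. For Tyro3 it was 0.14, while its used spots had an SD of 0.07 to 0.09 within an array.

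Axl and Mertk were both low on replicate 1 and parted on replicates 3 and 4. The difference of their relative log2 signals, Axl minus Mertk, was -0.08, 0.03, 0.44 and -0.61 on replicates 1 to 4, a shift of 2.08-fold between replicates 3 and 4. This size depends on the background correction and was smaller with normexp. On replicates 3 and 4 Axl was then at -1.91 and -2.25, and Mertk at -1.92 and -1.66. The difference Mertk minus Tyro3 shifted by 1.24-fold between its extremes. Only the change of such a difference across arrays can be read, since each receptor has a probe of its own. Neither receptor passed the variance test given below.

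Stab2, a scavenger receptor of sinusoidal endothelium that also binds phosphatidylserine, was not well above background on any array. Its intensity was 15.1, 5.45, 7.39 and 7.65, below the dimmest well-detected probe, which was at 19.2, 21.5, 20.7 and 18.1. The median of the negative control spots was 4.31, 4.72, 4.56 and 4.09, so replicate 1 gave 3.50 times that median and replicate 2 gave 1.16 times. The software's looser flag, positive and significant against background, was set on 3 arrays, replicate 2 being the exception.

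Among the bridging proteins, Mfge8 (lactadherin) was the 1 detected on all arrays. Its intensity was 390, 584, 677 and 293, or 16.2 to 32.6 times the dimmest well-detected probe. The relative log2 signal was -1.17, -0.68, -0.87 and -1.50. As for Axl, replicates 2 and 3 were the high arrays and replicate 4 the lowest. The mean was -1.06 ± 0.36 (SD, n = 4 arrays), with a span of 1.78-fold and an SD 2.50 times the estimated error of its spot.

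Gas6, the ligand shared by the 3 TAM receptors, was well above background on replicates 2, 3 and 4 and not on replicate 1. The intensity was 14.2, 56.5, 38.9 and 37.9, so replicate 1 lay below the limit and the other arrays at 1.88 to 2.63 times it. In relative log2 signal this was -5.95, -4.04, -4.99 and -4.46. The estimated error of the spot was 0.56 on replicate 1 and 0.21 to 0.25 on the others, so the position of replicate 1 is the least certain. All 4 arrays carried the looser flag of a positive and significant signal.

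Pros1, the plasma anticoagulant that also activates Tyro3 and Mertk, was not detected. Its intensity was 10.0, 4.61, 4.35 and 10.1, and on replicates 2 and 3 it did not exceed the median of the negative controls (0.98 and 0.95 times). On replicates 1 and 4 it was 2.32 and 2.46 times that median, still at 0.52 and 0.56 times the dimmest well-detected probe, and on these 2 arrays it carried the looser flag. Such values set a bound for this probe and do not show that the transcript is absent.

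**Figure D2:**
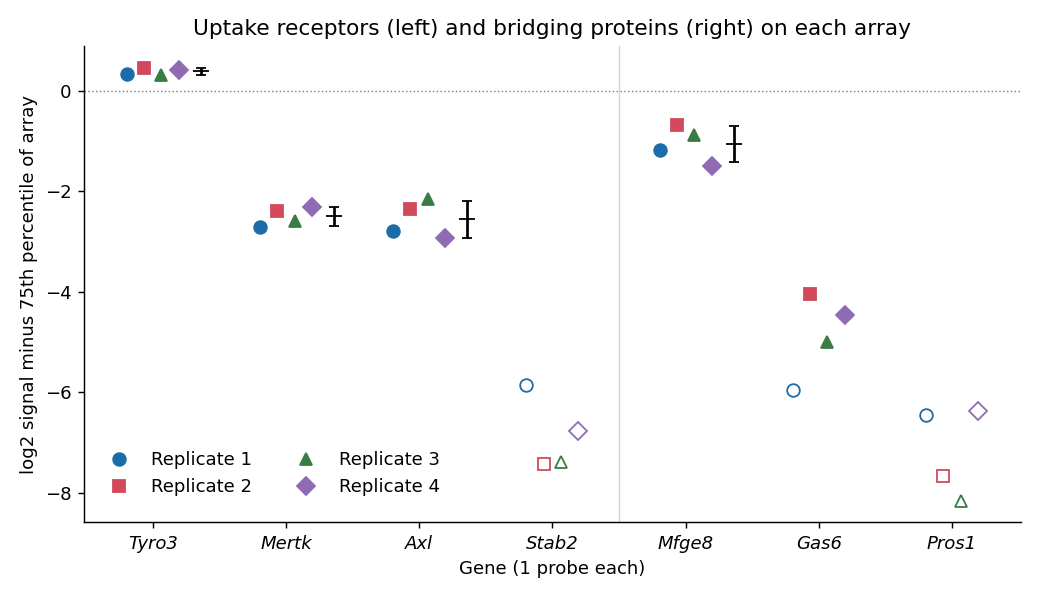
Relative log2 signal of the 7 members on each of the 4 arrays, receptors left and bridging proteins right; filled symbols are well above background, open symbols are not, and the black bars give mean ± SD for the 4 members detected on all arrays. Tyro3, Mertk, Axl and Mfge8 are filled throughout, Gas6 is open on replicate 1, and Stab2 and Pros1 are open on all arrays.

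Whether any member varied more between the cultures than transcripts of like signal was tested with limma, setting the variance of each detected probe against the variance fitted for its signal. None of the 4 detected members passed (adjusted p of 0.805 for Mfge8, 0.925 for Axl, 0.996 for Mertk and 0.996 for Tyro3; Benjamini-Hochberg over 17324 probes), and 10 of all probes did (0.0577%). Mfge8 was the 1 member with an unadjusted p under 0.05, as had 5.91% of detected probes. Its unadjusted p by limma across all probes was 0.0335, and 0.0745 without replicate 2, 0.102 without replicate 4 and 0.0920 without trend and robust options. In the other alternatives the unadjusted p of Mfge8 (limma) stayed under 0.05, from 0.0129 with no filter to 0.0413 with quantile scaling. With no scaling Axl was under 0.05 as well (unadjusted p of 0.0238, limma). The 5.91% holds for the main processing, and no such share is given for the alternatives. With no scaling the median SD of all detected probes was 0.271, against 0.161 in the main processing. A fit without trend and robust options called 0 members and 0 of all probes after adjustment. None of the 4 spanned more than 2-fold between arrays, as did 4.84% of detected probes. The median SD of the 4 was 0.27 against 0.16 over all detected probes, with Axl, Mfge8 and Mertk above and Tyro3 below. That comparison does not match for signal. The typical SD fitted at the signal of each gene was 0.20 for Axl, 0.16 for Mfge8, 0.19 for Mertk and 0.14 for Tyro3. The Tyro3 values average 6 to 8 spots an array, so its low SD does not compare directly with those from 1 spot. Power was low: of 100 simulated probes with an SD raised 4 times, the test found 18. Of 100 with an SD raised 12 times it found 85, while it also called 5 unchanged probes in that simulation. The simulated SDs were drawn from the fitted prior that the test itself assumes.

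**Figure D3:**
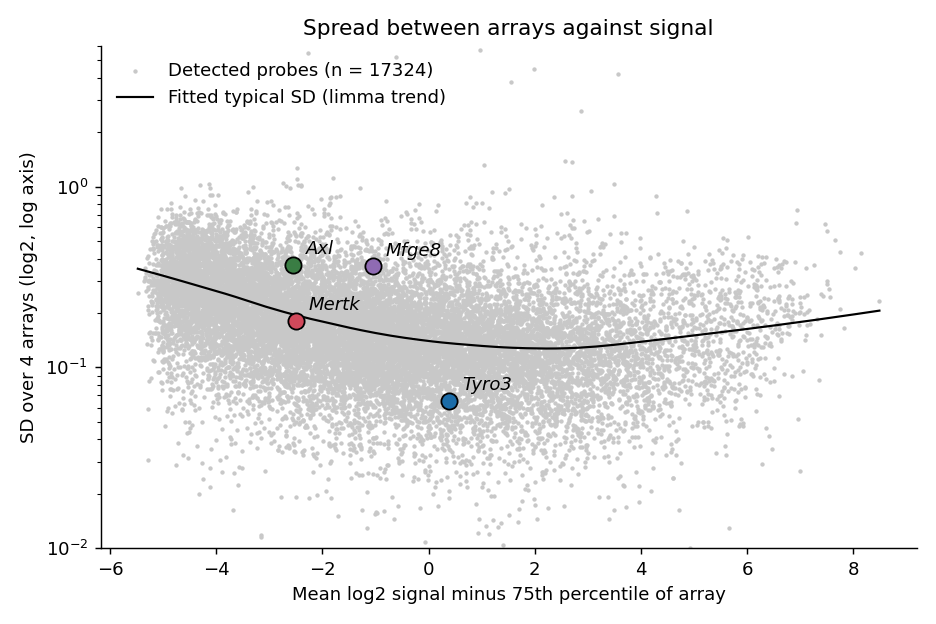
SD over the 4 arrays (log axis) against mean relative log2 signal for 17324 detected probes (grey), with the fitted typical SD as a line and the 4 detected members marked. Axl (0.37) and Mfge8 (0.36) lie above the line, Mertk (0.18) close to it and Tyro3 (0.07) below it, all inside the grey cloud. Tyro3 values average 6 to 8 spots an array, and those of Axl, Mfge8 and Mertk are of 1 spot.

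The deviations of the arrays from each gene's own mean showed which cultures made up the spread. Replicate 1 was below the mean for Axl, Mfge8 and Mertk (-0.23, -0.12 and -0.21), and replicate 2 above it for all 3 (0.20, 0.38 and 0.11). Replicate 4 was 0.38 below the mean for Axl and 0.45 below it for Mfge8, and 0.18 above it for Mertk. Replicate 3 was 0.41 above the mean for Axl and 0.19 above it for Mfge8, and 0.09 below it for Mertk. The difference Mfge8 minus Axl therefore shifted by 1.32-fold at most, less than either gene alone in the main processing. With another background correction (normexp) the span of Axl alone fell from 0.79 to 0.35 on the log2 scale. There the difference no longer shifted less than Axl. With 4 arrays no relation between the genes was tested.

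**Figure D4:**
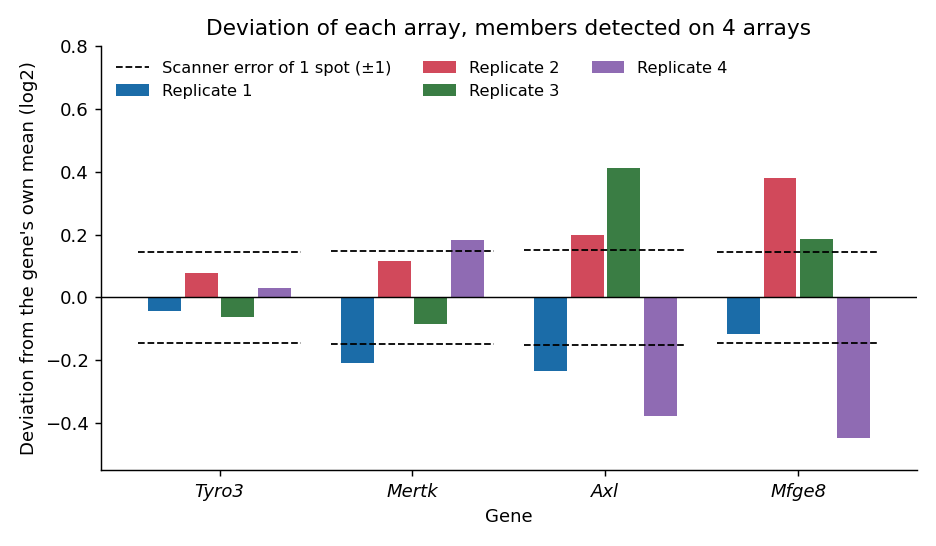
Deviation of each array from the gene's own mean (log2) for the 4 members detected on all arrays; dashed lines mark the error that the scanner software estimates for 1 spot, while each Tyro3 bar is a mean of 6 to 8 spots. Axl and Mfge8 are below their mean on replicates 1 and 4 and above it on replicates 2 and 3, and Mertk is below its mean on replicates 1 and 3.

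The promoters of the members were read from RefSeq (build GRCr8) as the 250 bases before the annotated start, found for all 10. They were searched on both strands for the GC box GGGCGG, to which Sp family factors bind, the TATA box TATAAA, the E-box CACGTG, the nuclear receptor half-site AGGTCA, the ETS site AGGAAGT, the AP-1 site TGANTCA and CCAAT. A GC box was present in the 4 detected members (6 in Tyro3, 3 in Mfge8, 2 in Mertk and 1 in Axl), in Gas6, Pros1 and Elmo1 (3 each), and in none of Stab1, Stab2 and Timd4. Of all 33469 promoters of this length 30.5% held one; the share was 57.8% among detected genes and 29.1% among genes not detected. CpG dinucleotides numbered 41 in Tyro3, 22 in Mertk, 12 in Mfge8 and 7 in Axl among the detected members, 20 in Gas6 and 16 in Pros1, 26 in Elmo1, and 8 in Stab1, 3 in Timd4 and 2 in Stab2. The median was 16 in detected genes and 5 in genes not detected, so Axl lay nearer the second and Pros1, not detected, at the first. No member had a TATA box or an E-box, found in 12.9% and 5.59% of promoters. The half-site AGGTCA, found in 14.1% of promoters, occurred once each in Gas6, Stab2 and Timd4. The ETS site occurred once in Elmo1, the AP-1 site once in Tyro3 and CCAAT once in Timd4, where 7.08%, 6.34% and 34.0% of promoters held them. A match of letters is a description and not a shown binding site.

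The windows of 2 bridging proteins are printed because they are the ones with a signal above background and their window ends where the annotated gene begins; GC boxes are in capitals, on either strand. In Mfge8 (chr1:142489432-142489681, strand -) the boxes begin 72, 44 and 23 bases before the start, and in Gas6 (chr16:82747426-82747675, strand +) 122, 108 and 87 bases before it. The array was designed on another build (rn4), and no probe position is drawn from these coordinates.
Mfge8 promoter: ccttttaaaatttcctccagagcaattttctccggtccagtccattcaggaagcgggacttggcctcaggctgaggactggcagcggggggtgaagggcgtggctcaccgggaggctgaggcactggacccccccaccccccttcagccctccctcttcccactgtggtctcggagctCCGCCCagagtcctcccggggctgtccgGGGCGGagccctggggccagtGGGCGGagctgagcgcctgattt
Gas6 promoter: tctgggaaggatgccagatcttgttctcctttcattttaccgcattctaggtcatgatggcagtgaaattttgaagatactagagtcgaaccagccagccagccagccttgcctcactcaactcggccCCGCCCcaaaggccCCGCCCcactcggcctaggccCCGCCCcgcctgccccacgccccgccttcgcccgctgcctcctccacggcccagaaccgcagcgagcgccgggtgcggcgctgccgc

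Most genes listed for the wider pathway that had a named probe were detected. The lists were chosen with earlier results of these data known, so their share is a description. Of 154 further genes in 10 lists, 140 had a named probe, and 107 of these were detected, 4 partly and 29 not. The lists are described by these counts beside the 51.0% of all named genes, with no test. None of the 138 detected probes of these genes was hypervariable by limma (0.0577% of all detected probes were), and 7 had an unadjusted p under 0.05, beside 5.91% of all detected probes.

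Of 21 other uptake receptors, 15 were detected and 6 were not. Cd36, a scavenger receptor that binds oxidised lipids on dying cells, was detected by 2 probes. The brighter was at 5.00, 4.67, 4.19 and 4.45 in relative log2 signal, highest on replicate 1. The other was at 0.22, 0.05, -0.002 and 0.49, highest on replicate 4. Trem2, a lipid-sensing receptor of macrophages, was at 6.36, 6.47, 6.19 and 6.34, and Lrp1, the receptor that reads calreticulin, at -1.16, -1.15, -1.29 and -1.35. Both kept to a narrow range over the arrays. Adgrb1 (BAI1), a phosphatidylserine receptor that signals through Elmo1 and Dock1, was detected at -4.05, -3.57, -4.27 and -3.96. Of the integrin partners of Mfge8, Itgb3 was detected by both of its probes, Itgb5 was not detected, and Itgav had no named probe. The 2 Itgb3 probes differed: one was at -2.04, -1.97, -1.84 and -1.52, and the other at -2.02, -2.92, -2.63 and -1.22, a span of more than 2-fold (adjusted p = 0.298, limma). With no filter on dim probes that probe passed (adjusted p = 0.00214, limma), as did 0.799% of all probes; the cause was not tested. Scarf1, a scavenger receptor for C1q-coated cells, was detected at -4.98, -4.43, -5.43 and -4.48, just over 2-fold between its extremes (adjusted p = 0.996, limma). Its probe was about as dim as that of Gas6 (means of -4.83 and -4.86), so this span was measured near the detection limit.

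Other bridging and eat-me genes were the 1 list of the 10 with fewer than 51.0% detected, 5 of 14. Thbs1 (thrombospondin, which bridges cells to Cd36) and the complement gene C1qa, whose product coats dying cells, were not detected on any array. Calr, the eat-me signal calreticulin, was detected at 3.71, 3.78, 3.96 and 4.17, and Anxa1, a lipid-binding annexin released around dying cells, at 5.33, 5.29, 5.14 and 5.38. Together with Pros1 and Gas6 this left Mfge8, Anxa1, Anxa5, Calr, C3 and Pdia3 as the genes of both groups detected on all arrays.

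The engulfment machinery downstream had 14 of 19 genes detected, 1 partly and 4 not. Dock1, the Rac activator that works with Elmo1, was at -3.87, -3.85, -3.45 and -3.70 and was detected on every array; Dock2, its relative in leukocytes, had no named probe. Of the relatives of Elmo1, Elmo2 was detected by 2 of its 3 probes (0.88 ± 0.09, SD, n = 4 arrays, for the brightest) and Elmo3 was not. Rac1 was at 1.25, 1.34, 1.23 and 1.06, Rac2, the Rac of blood cells, at 2.92, 2.87, 2.82 and 2.96, and Rhog, which recruits Elmo proteins, at 3.80, 3.85, 3.69 and 4.02. These GTPases showed little spread between cultures. Crk, the adaptor of the Dock1 pathway, was detected at -4.41, -4.38, -3.92 and -3.69. Gulp1, the adaptor of the Lrp1 and Stab2 pathway, was not detected by either of its 2 probes.

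**Figure D5:**
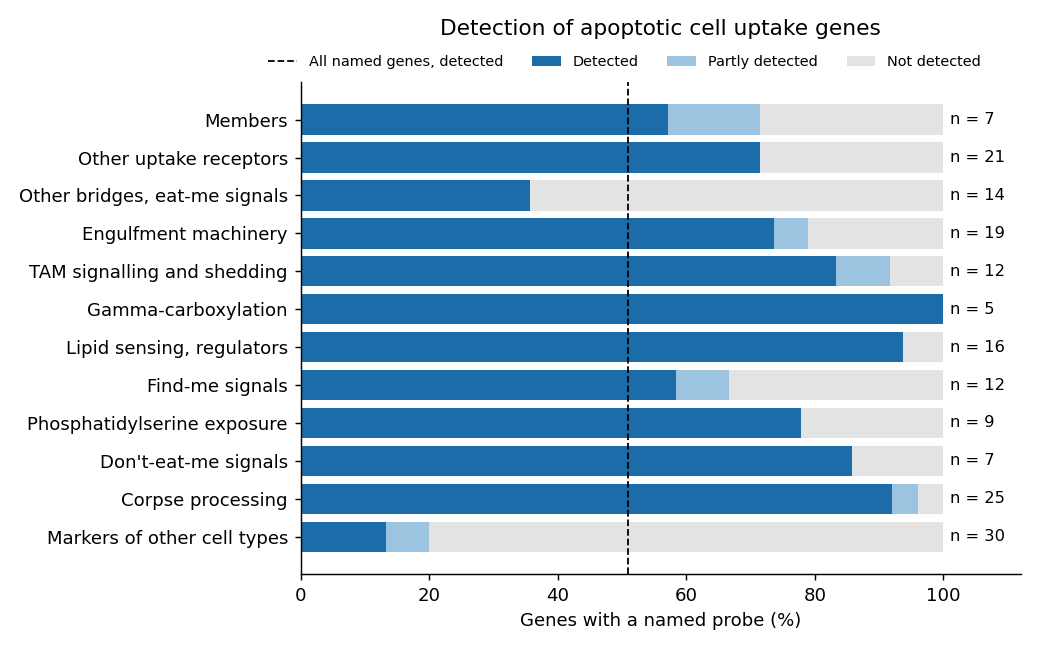
Share of the genes with a named probe that were detected, partly detected or not detected, for the 7 members, the 10 pathway lists and the markers of other cell types; n is the number of genes and the dashed line marks the 51.0% of all named genes that were detected. All lists but the other bridges and the markers of other cells reach past the line.

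Transcripts of enzymes of gamma-carboxylation and vitamin K recycling were all detected, 5 of 5. Ggcx, the gamma-glutamyl carboxylase, was at -0.14, -0.15, -0.52 and -0.34 by the brighter of its 2 detected probes. Vkorc1, which recycles vitamin K for that reaction, was at 0.91, 0.91, 0.76 and 1.06. Transcripts of these enzymes were thus measured in cultures where Pros1 was not detected and Gas6 was detected on 3 of 4 arrays.

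TAM signalling and shedding genes were detected for 10 of 12, with Socs1 well above background on 1 array and Src on none. Adam17 and Adam10, proteases that cut TAM receptors from the cell surface, were both detected, Adam17 at -0.46, -0.37, -0.31 and -0.63 and Adam10 at -1.93, -2.30, -2.03 and -1.63. Socs3, a feedback inhibitor of cytokine signalling, was at 1.07 ± 0.22 (SD, n = 4 arrays) by the brighter of its 2 detected probes. The other was at -3.69, -3.43, -3.72 and -3.54.

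Regulators that tie corpse uptake to lipid handling were detected for 15 of 16, and Klf2 was not. Nr1h3 (LXR alpha), an activator of Mertk transcription in macrophages, was at 3.06, 3.04, 2.98 and 2.96, and its partner Rxra at -3.11, -3.71, -3.62 and -3.03. Pparg, the nuclear receptor of alveolar macrophages, was at 4.00, 4.05, 3.98 and 4.35. Ucp2, a mitochondrial protein that sustains the uptake of several corpses, was at 0.73, 1.23, 1.02 and 0.18, over 2-fold between replicates 2 and 4 (adjusted p = 0.422, limma). With no filter on dim probes it passed too (adjusted p = 0.0196, limma).

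Signals around the corpse and the fate of its cargo were also covered. Of 12 genes for find-me signals 7 were detected, 1 partly (Gpr132, on 2 arrays) and 4 not. Of 9 phosphatidylserine exposure genes with a probe 7 were detected, including the flippase subunit Tmem30a and the scramblase Xkr8. Of 7 don't-eat-me genes 6 were detected, with Cd47, the signal on healthy cells, at 3.09, 3.00, 3.15 and 3.31, and its macrophage receptor Sirpa at 5.61, 5.53, 5.35 and 5.40 by the brighter probes. Of 25 corpse processing genes 23 were detected, Rab17 partly and Rab5a not.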

How the data were processed

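The submitters' processing notes name Agilent Feature Extraction 11.0.1.1. The deposited files hold its spot intensities, linear and in 1 colour (Cy3), per the file headers: a processed signal after the software's own background handling, the error of that signal, and the raw median with the local background. Other deposited columns are flags of 0 or 1, per the file headers, for detection, saturation and outlier spots. The headers record no normalization across arrays.

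Accessions without versions were matched to RefSeq (assembly GRCr8, used for names). Of 45598 gene probes, 21109 had 1 gene symbol, 0 several and 24489 none. Spots of a probe were averaged on the log2 scale without spots flagged as outliers (1.11% to 1.45%); no spot was saturated. A probe was well above background when more than 50% of its remaining spots were. Each array was scaled to its 75th percentile over gene spots. For genes with several probes, the value is that of the brightest. The number of arrays, 4, limits the precision. No gene spot had the same processed signal on any pair of arrays.

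Probes detected on all arrays were fitted with limma 3.58.1 in R 4.3.3 (intercept only, trend and robust), and the residual variance was set against the fitted prior in an upper-tail F test with Benjamini-Hochberg adjustment at 0.05. The test was also run on simulated data, with means and prior SDs taken from the fit to these arrays. Other steps used Python 3.11.15, numpy 2.4.6 and pandas 2.3.3. Alternatives varied the scaling, background correction, filter, detection flag, outlier spots and the arrays used.

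The members and gene lists were chosen with earlier results of these data known. The text names all members, a fixed set of examples from the lists, list genes spanning over 2-fold, and a few genes named after their values were seen, because they make up a small count. Some genes of the lists are counted and not reported here by name.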

Additional observations from a re-analysis of the deposited data

Results flagged for a closer look

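None of the 7 members had 1 array set apart from the other 3 by Dixon's ratio (the gap to the nearest array over the whole range, against the 95% critical value). Of 34 genes checked, 3 of the list examples did; chance alone sets an array apart in about 1 in 20, and all 3 depend on the scaling. For Pparg, replicate 4 read 4.35 while the other arrays ranged from 3.98 to 4.05 (ratio 0.831). For C1qa, replicate 3 read -7.12, the others -6.38 to -6.30 (ratio 0.906). For Gulp1, replicate 3 read -8.02, the others -7.57 to -7.55 (ratio 0.965). Neither C1qa nor Gulp1 was detected. With no scaling, an alternative chosen after seeing the data, none of the 3 had an array apart: the ratio was 0.434 for Pparg, 0.484 for C1qa and 0.404 for Gulp1, whose log2 signals were then 2.21, 2.31, 2.25 and 2.15. Replicate 3 has the highest 75th percentile, which is subtracted on the log2 scale. Unscaled, the ratio passed for Itgb5 (0.842), Dock1 (0.882) and Rxra (0.962) in place of those 3.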

How the results depend on the processing

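Detection of the members varied from 4 to 5 of 7 over 8 alternatives. Gas6 was the 1 member added, by the positive and significant flag, the 95th percentile of the negative controls, at least 3 of 4 arrays, and leaving out replicate 1; the background share rose to 60.4%, 60.5%, 52.4% and 51.4%. The pathway lists gave 107 to 115 of 140. Leaving out 1 replicate gave 4 to 5 members and 107 list genes. No member was hypervariable by limma under any of 12 alternatives: adjusted p values spanned 0.391 to 0.977 (Mfge8) and 0.706 to 0.994 (Axl), and were at least 0.959 for Mertk and Tyro3. Over all probes 10 were called, against 92 with no scaling, 42 with normexp, 0 without trend and robust fitting, 364 of 45533 with no filter, 37 with all spots, and 6 to 46 without 1 replicate. With no filter Itgb3 (adjusted p = 0.00214) and Ucp2 (0.0196, limma) passed, where 0.799% of all probes did; the cause was not tested. The span of Axl was 0.79 on the log2 scale and 0.35 with normexp, that of Mfge8 0.83 and 0.68, with the same highest and lowest arrays. The Tyro3 arrays, which differ little, changed order with normexp. Levels of all 7 members moved by more than 1 SD with normexp and with the percentile of detected probes, of which the latter shifts all probes of an array alike. With normexp the mean of Tyro3 went from 0.39 to 0.48 and that of Pros1 from -7.16 to -3.67, so dim probes moved more. The lowest array of Gas6 was replicate 1, and replicate 3 with normexp. Over 2-fold lay 0 members, 2 with no scaling (Axl and Mfge8) and 3 with no filter (Gas6, Pros1 and Stab2), beside 839 and 1901 of all 17324 probes, and 13078 of 45533 with no filter (28.7%). For the list probes this count was 3, against 12 with no scaling and 19 with no filter. It was 1 (Itgb3) with normexp or without replicate 2, and 1 (Scarf1) without replicate 4. Over all probes the count fell in these 3 settings too, to 224 (1.29%), 666 (3.78%) and 455 (2.59%), from 4.84% in the main processing. Scaling to averaged probes, or to probes detected on all arrays, was chosen after seeing the data for the spread, as was keeping all spots for the levels. No paired analysis was possible because the series holds 1 group.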
